A study of Mus musculus with 16 samples.

Results

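The genes of the proteasome and of the enzymes that attach ubiquitin to proteins were followed in kidneys of mice that lack Pept2 (Slc15a2), the peptide transporter of the renal tubule. Members were all genes whose symbol begins with Psma to Psmg and a number, Ube1 to Ube4, or Uba and a number, and that a spotted cDNA probe named alone. The rule found 73 such genes among 9669 genes with a single-gene probe, and 65 of them had a value in both channel orientations of every mouse, among 6191 genes that did. Total RNA of the right kidney came from 4 Pept2-/- males aged 88 days (plus or minus 2), bred on a background mixed from C57BL/6 and 129Sv out of matings within the F4 generation of a Pept2+/- line. The comparator was 1 RNA pool of 5 right kidneys of Pept2+/+ males of the same breeding and age, and it was hybridised on every array. Each knockout mouse was measured on 4 two-colour arrays, 2 with its RNA in channel 1 and 2 with the channels exchanged. Knockout animals are named mouse 1 to mouse 4.

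Ubiquitin is activated by an E1 enzyme, passed to an E2 conjugating enzyme and attached to a substrate with the help of an E3 ligase. Chains of ubiquitin mark the substrate for the 26S proteasome, in which a 19S cap recognises, unfolds and feeds the protein into the barrel of the 20S core, where it is cut to peptides. Proximal tubule cells take up large amounts of protein and peptide from the filtrate, and in cells of most tissues the proteasome is the main source of cytosolic peptides.

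Slc15a2 was checked first. Its log2 ratio of knockout over pool was -2.17, -2.74, -2.81 and -2.33 in mice 1 to 4, and it was below 0 on all 16 arrays, at a mean of -2.51 (SE 0.10, n = 4). The labels do not say which channel is the numerator. The direction given here, channel 1 over channel 2, is the likely one and rests on this gene, so that under the opposite reading every higher and lower below would be exchanged. Values were ratios without a level, so the tissue could not be checked by how strongly its markers were expressed. Between 10134 (50.2%) and 18400 (91.1%) of 20205 probes carried a value on an array, and precision is limited by how few animals and arrays there were. Array 3 of mouse 3 and array 1 of mouse 4 had the highest correlation of any 2 arrays across probes (r = 0.62), although they came from different animals. Both held knockout RNA in channel 2, and values were correlated before they were signed to knockout. Results are also given without these arrays. For pairs in the same orientation, the median r was 0.17 between different mice and 0.25 within a mouse. For pairs in opposite orientations it was -0.035 and -0.11. Because wild-type animals were not measured singly, their spread is in no test, and any error of the pool is common to the 4 knockout mice.

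Subunit genes of the proteasome are known to be driven together by NFE2L1, which binds antioxidant response elements, and many housekeeping promoters carry sites for ETS factors. The 250 bases before the start of transcription were read from RefSeq promoters (build GRCm38.p6) for the 22 of 27 measured 20S and 19S subunit genes that matched by symbol. The core of the antioxidant response element, TGACNNNGC on either strand, lay in this window of 3 subunit genes (13.6%), Psmb5, Psmb6 and Psmc6, against 11.5% of all 27025 genes in the table and 710 of the 5056 matched genes tested here. The ETS core CCGGAAG, on either strand, lay in that of 8 subunit genes (36.4%), namely Psma6, Psmc1, Psmc2, Psmc6, Psmd2, Psmd4, Psmd6 and Psmd11, against 7.83% of all genes and 15.6% of those tested here. The same core lay in that of 8 of 23 matched ubiquitin enzyme genes (34.8%). The 4 windows below are shown because they belong to the 3 genes with the first core and to Psmd6, which had the lowest ratio among the non-ATPase cap subunits that the naming rule took. Each runs 5′ to 3′ on the strand of its gene, and capitals mark the matches to either core, which share no base with each other in these windows.
Psmb5 (chr14:54617996-54618245, minus strand; antioxidant core): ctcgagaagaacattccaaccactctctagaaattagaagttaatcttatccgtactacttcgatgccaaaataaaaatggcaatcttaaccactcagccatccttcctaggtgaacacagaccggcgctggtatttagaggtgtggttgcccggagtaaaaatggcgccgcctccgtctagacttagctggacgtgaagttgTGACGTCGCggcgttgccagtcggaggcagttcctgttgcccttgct
Psmb6 (chr11:70525107-70525356, plus strand; antioxidant core): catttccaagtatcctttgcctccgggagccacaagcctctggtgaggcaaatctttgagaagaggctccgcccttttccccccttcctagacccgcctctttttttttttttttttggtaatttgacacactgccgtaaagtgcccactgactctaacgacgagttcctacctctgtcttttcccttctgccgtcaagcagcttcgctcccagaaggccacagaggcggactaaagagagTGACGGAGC
Psmc6 (chr14:45329574-45329823, plus strand; antioxidant core, then ETS core): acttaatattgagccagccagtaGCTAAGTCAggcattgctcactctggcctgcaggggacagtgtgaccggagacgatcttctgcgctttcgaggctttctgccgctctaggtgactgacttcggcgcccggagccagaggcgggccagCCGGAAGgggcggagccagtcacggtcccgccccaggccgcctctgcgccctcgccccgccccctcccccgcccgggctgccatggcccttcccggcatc
Psmd6 (chr14:14120946-14121195, minus strand; ETS core): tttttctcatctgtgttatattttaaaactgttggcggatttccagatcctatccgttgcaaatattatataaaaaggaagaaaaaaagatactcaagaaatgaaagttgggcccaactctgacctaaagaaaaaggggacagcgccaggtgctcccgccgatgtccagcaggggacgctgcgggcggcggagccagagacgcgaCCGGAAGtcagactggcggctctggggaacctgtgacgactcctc
In Psmb6 the match begins 9 bases before the start and in Psmb5 47 bases before it, while in Psmc6 it begins 227 bases upstream and reads on the opposite strand. The ETS core begins 100 bases before the start of Psmc6 and 45 before that of Psmd6. A match is a description of these letters and shows no binding.

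The genes of the constitutive proteasome lay slightly below the wild-type pool as a group. Of 27 measured subunits of the 20S core and the 19S cap, 26 had a log2 ratio below 0, and their median was -0.13, where 3205 of 6191 genes were below 0 and the median of all genes was -0.0038. The medians of the subunits were -0.075, -0.044, -0.13 and -0.17 in mice 1 to 4, against -0.0060, 0.00011, -0.0054 and -0.0061 for all genes, so that the subunit median was below 0 in each animal and lower in mice 3 and 4. A ratio below 0 in all 4 mice was found for 14 of the 27 subunits, and for 14.3% of all genes. None passed an adjusted p of 0.05 in limma, a threshold that 0.145% of genes passed as lower and 0.0646% as higher, and the smallest adjusted p among these 27 was 0.172. At an unadjusted p under 0.05, 14 subunits were lower and none was higher, against 10.0% and 6.80% of all genes. Fewer cells of a type that is rich in these transcripts and less transcript per cell cannot be told apart in whole kidney.

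**Figure D1:**
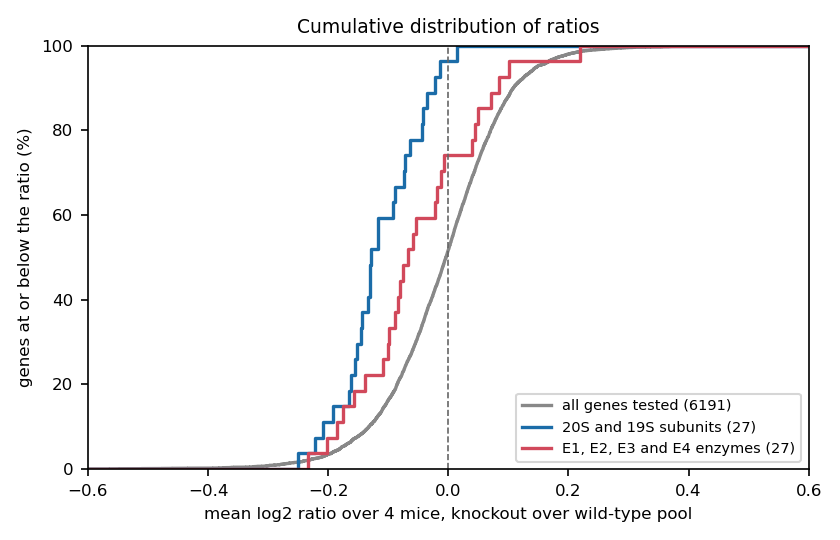
Cumulative share of genes (%, y axis) at or below each mean log2 ratio over 4 mice (x axis), for all 6191 genes tested, the 27 subunits of the 20S core and 19S cap, and the 27 measured E1, E2, E3 and E4 enzymes of the rule. The subunit curve lies left of the curve of all genes, with a median of -0.13, and the enzyme curve lies between them over most of its range, with a median of -0.067.

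The count at an unadjusted p under 0.05 fell most without mouse 3 or mouse 4, as did the share of all genes. The count was 5 of 27 without mouse 3 and 5 without mouse 4, with 6.09% and 5.42% of all genes lower at that p. It was 11 without mouse 1 and 15 without mouse 2, with 9.62% and 10.7% of all genes. The number of subunits below 0 stayed between 25 and 27 in these fits. When the 16 arrays were fitted with the mouse as a random block, at a correlation within mice of 0.014, 10 of the 65 members passed the adjusted threshold and 9 of them were lower. Those 10 were Psma1, Psmb1, Psmb7, Psmc4, Psmc6, Psmd6, Ube2a, Ube2d3, Ube2w and, as the only higher one, Ube2l6. That fit called 7.54% of all genes and takes the arrays of an animal as nearly independent.

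The alpha subunits form the outer rings of the 20S core and gate its entrance. All 6 measured alpha genes had a ratio below 0, with a median of -0.13, and the medians of the mice were -0.059, -0.068, -0.14 and -0.21. Psma1 stood at -0.082, -0.053, -0.41 and -0.28 in mice 1 to 4. All 4 animals lay below the pool, mouse 3 the most, and so did all 16 arrays, at a mean of -0.21 (SE 0.066, 1.16-fold lower, adjusted p 0.186). Psma7 was at -0.22, -0.083, -0.12 and -0.20. Here mouse 1 was as low as mouse 4, and the mean was -0.16 (SE 0.047, adjusted p 0.179). Psma5 ranged from -0.21 in mouse 4 to -0.012 in mouse 1, with a mean of -0.13. Psma2 had the same mean of -0.13 but crossed 0 in mouse 1, at 0.020. In that mouse, array 3 was at 0.64 and the other arrays at -0.18, -0.24 and -0.14. The remaining pair, Psma6 and Psma4, had means of -0.092 and -0.044, each with mouse 2 above 0.

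The beta subunits form the inner rings and carry the active sites: Psmb5 the chymotrypsin-like, Psmb6 the caspase-like and Psmb7 the trypsin-like one. Of 7 beta genes, 6 were below 0, with a median of -0.14. Among the catalytic subunits, Psmb7 was at -0.11, -0.070, -0.28 and -0.19 in mice 1 to 4. It was below the pool in each animal and on all 16 arrays, with a mean of -0.16 (SE 0.051, 1.12-fold lower, adjusted p 0.185). Psmb5 was at -0.053, -0.078, -0.26 and -0.19. Mouse 3 was again the lowest, and the mean of Psmb5 was -0.14 (SE 0.051, adjusted p 0.222). Psmb6, whose promoter window is printed above, was at -0.17, 0.026, -0.12 and -0.20, with mouse 2 above the pool and a mean of -0.12 (SE 0.052).

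The other beta subunits have no active site. Psmb4, which helps to join the half-barrels of the core, had the smallest p of the 27 subunits of the naming rule, with values of -0.21, -0.10, -0.13 and -0.22 in mice 1 to 4. Its animals lay close together, and the mean was -0.17 (SE 0.046, 1.12-fold lower, adjusted p 0.172). By orientation it was -0.058 with knockout RNA in channel 1 only and -0.27 in channel 2 only. Psmb1 had a mean of -0.22 (SE 0.075) from unlike animals, at -0.053, -0.034, -0.36 and -0.44. Mice 3 and 4 stood far below mice 1 and 2 for this gene. Psmb2 had a mean of -0.074, with mouse 1 above 0. Psmb3 was the only subunit of core or cap with a mean above 0, at 0.014 (SE 0.045), and its mice ran from -0.037 to 0.073.

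Under interferon-gamma and in immune cells the catalytic subunits are replaced by induced ones, which make the immunoproteasome. Psmb8, the induced counterpart of Psmb5, was at -0.047, -0.027, -0.011 and 0.017 in mice 1 to 4, with a mean of -0.017 (SE 0.043). Psmb10, the counterpart of Psmb7, was at -0.084, -0.0094, 0.011 and -0.097, with a mean of -0.045 (SE 0.045). Neither differed from the pool by more than its error, and both turned to values above 0 when only arrays with knockout RNA in channel 2 were used (0.035 and 0.11). Psmb11, the thymus-specific subunit, carried values on only 2 arrays and was not tested.

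The 19S base holds a ring of 6 ATPases that unfold the substrate, and all 6 had a ratio below 0, with a median of -0.13 and mouse medians of -0.085, -0.029, -0.092 and -0.17. Psmc6 was the lowest member of the whole set. It stood at -0.062, -0.035, -0.48 and -0.42 in mice 1 to 4, so that mice 3 and 4 carried most of its mean of -0.25 (SE 0.082, 1.19-fold lower, adjusted p 0.191). Psmc4 was at -0.20, -0.13, -0.081 and -0.20. Unlike Psmc6 it was lowest in mice 1 and 4, and its mean was -0.15 (SE 0.046, adjusted p 0.179). Psmc2 was at -0.17, -0.091, -0.094 and -0.17, below the pool in each animal, with a mean of -0.13. Psmc1 had a mean of -0.13 from a pair of probes at -0.095 and -0.17, with mouse 2 next to 0 at -0.0074, and one of -0.084 without mouse 3. Psmc5 and Psmc3 were nearest to the pool among the ATPases, at -0.041 and -0.023.

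The non-ATPase subunits of the cap bind ubiquitin chains, remove them and hold the lid on the base. All 8 measured ones were below 0, with a median of -0.081. Psmd6, a scaffold subunit of the lid, was at -0.30, -0.044, -0.29 and -0.13 in mice 1 to 4. Mice 1 and 3 were the low ones here, and the mean was -0.19 (SE 0.057, 1.14-fold lower, adjusted p 0.178). Psmd14, the deubiquitinase that cuts the chain off before the protein is degraded, was at -0.13, 0.0099, -0.23 and -0.23. Its mouse 2 lay just above the pool, and the mean was -0.15 (SE 0.054, adjusted p 0.241). Psmd13, another lid scaffold, had a mean of -0.12 and Psmd7, the partner of Psmd14, one of -0.089 from closely placed animals (-0.070, -0.066, -0.11 and -0.11). The ubiquitin receptor Psmd4 was at -0.064, the base scaffold Psmd2 at -0.073 and Psmd11 at -0.036. Psmd8 varied most, from -0.24 in mouse 1 to 0.14 in mouse 2, around a mean of -0.014 (SE 0.066). Psmd1 had values on 7 arrays, between -0.45 and 0.18, and was not tested.

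**Figure D2:**
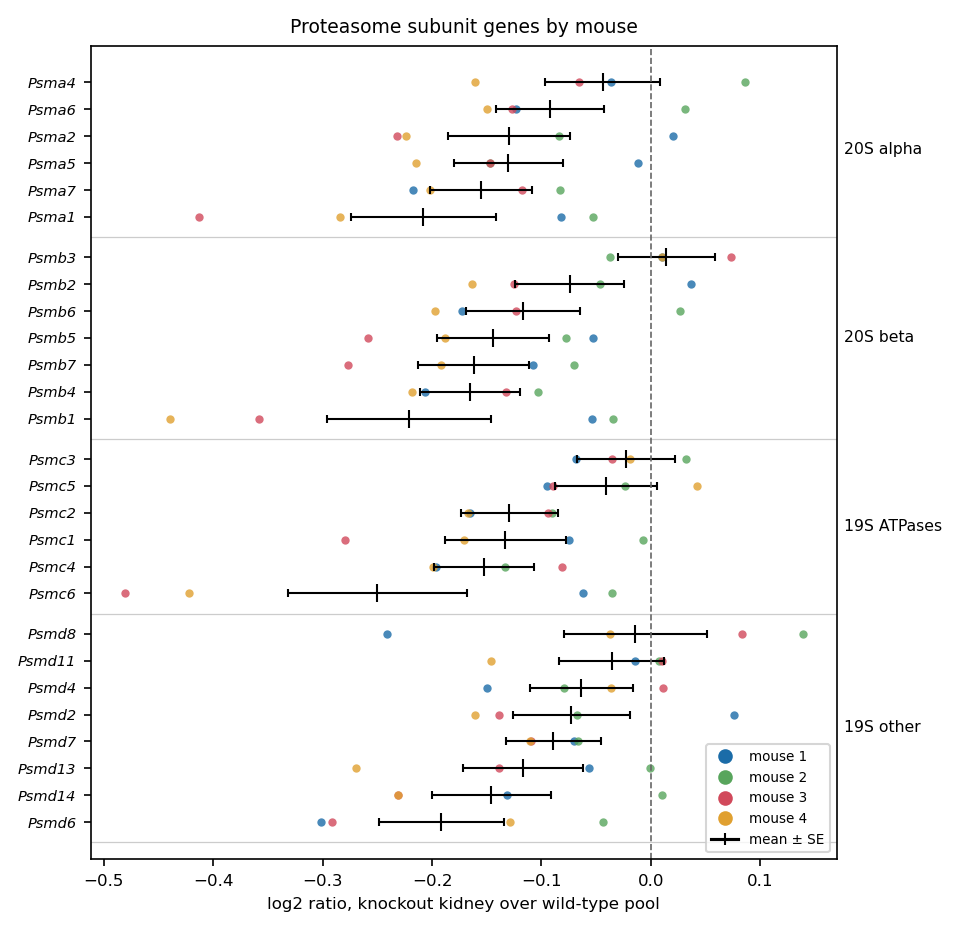
Log2 ratio of knockout kidney over wild-type pool (x axis) of the 27 measured 20S and 19S subunit genes (y axis), with a coloured point for each of 4 mice and a black bar for their mean ± SE from limma. Means run from -0.25 (Psmc6) to 0.014 (Psmb3), and only Psmb3 has a mean above 0.

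The subunits were not all lowest in the same animal. Mouse 4 had the lowest value of the 4 for 14 of the 27 subunits, where it was the lowest for 23.1% of all genes. Mouse 2 had the highest value for 17 subunits and the lowest for 1. Of all 6191 genes, mouse 2 was the highest for 1740 and the lowest for 1424. Single arrays show the same group at a finer grain. The median of the 13 core subunits was below 0 on all 16 arrays, from -0.40 to -0.037, and that of the 14 cap subunits on 15, from -0.29 to 0.0024. The median of all genes lay between -0.043 and 0.017. The lowest core medians came from array 3 of mouse 3 (-0.40), array 1 of mouse 4 (-0.39) and array 2 of mouse 4 (-0.33). Those 3 arrays also had wide distributions, with median absolute deviations of 0.346, 0.265 and 0.279, in a range of 0.131 to 0.346 over all arrays. Array 1 of mouse 3 and array 3 of mouse 4 were about as wide, at 0.271 and 0.252, with core medians of -0.15 and -0.093. Width went with the animal: deviations on arrays of mice 1 and 2 lay between 0.147 and 0.224. Those of mice 3 and 4 lay between 0.245 and 0.346, apart from array 4 of mouse 4 at 0.131.

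**Figure D3:**
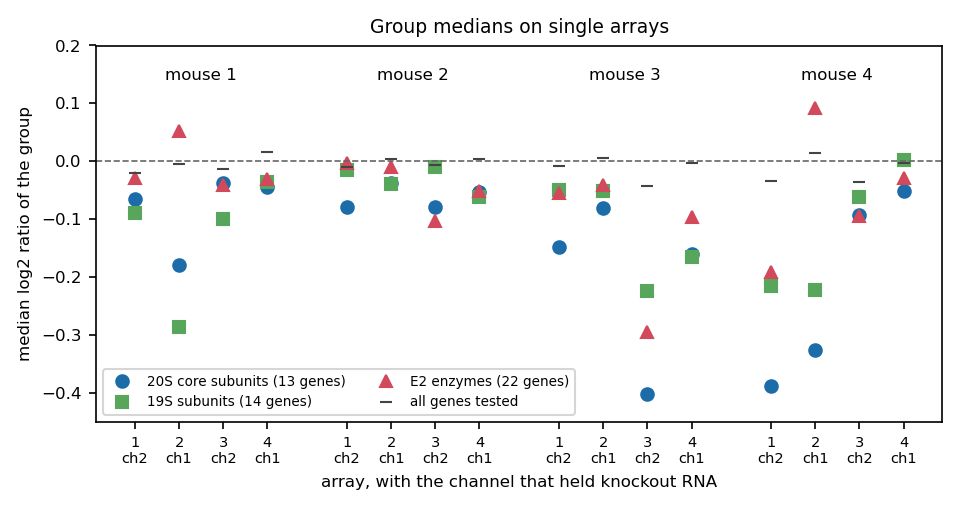
Median log2 ratio (y axis) of the 13 core subunits, the 14 cap subunits, the 22 measured E2 genes and all genes tested, on each of the 16 arrays (x axis, by mouse, with the channel that held knockout RNA). Core medians lie below 0 on every array, and the lowest are -0.40 on array 3 of mouse 3 and -0.39 on array 1 of mouse 4.

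The 2 arrays with the lowest core medians were the correlated pair named above. With both left out, 25 of the 26 subunits that kept enough values were below 0, the alpha median was -0.092, the beta median -0.12, the ATPase median -0.12 and the non-ATPase median -0.040. At an unadjusted p under 0.05, 10 of the 26 were then lower, against 8.92% of all genes. After scaling of all arrays to one spread, 26 of 27 subunits were below 0 and the core medians were -0.12 (alpha) and -0.12 (beta). A test of the difference between orientations, which reads a bias of dye or channel, passed its adjusted threshold for none of the 65 members and 0% of all genes in limma. At an unadjusted p under 0.05 there was such a difference for 7 members, and for 19.5% of all genes. Means that moved by more than 1.5 times between all arrays and 1 orientation were, beside those given with their gene, Psmb1 (-0.11 with knockout RNA in channel 1 only and -0.33 in channel 2 only), Psma5 (-0.053 and -0.21), Psmc2 (-0.20 and -0.059), Psmd6 (-0.10 and -0.28), Psmd14 (-0.20 and -0.089) and Uba6 (-0.055 and -0.29), among members named in detail and at an unadjusted p under 0.05. All of these values were below 0.

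Activators, an inhibitor and assembly factors had a median of -0.028, with 5 of 8 below 0 and mouse medians of 0.0085, -0.031, -0.075 and -0.065. That median was -0.050 without mouse 2, over 8 genes. It was -0.012 without mouse 3, but over 9 genes, so that the set of genes differed as well. Psme1 and Psme2 form the interferon-inducible PA28 ring. Psme2 was at 0.0084, -0.11, -0.13 and -0.19 in mice 1 to 4, with a mean of -0.10 (SE 0.049, adjusted p 0.326), while its partner Psme1 had a mean of 0.012 (SE 0.051) and stood apart in mouse 4, at 0.15. The nuclear activator Psme3 was at 0.013. Psmf1, which encodes the proteasome inhibitor PI31, was the only gene of this group above the pool in all 4 mice, at 0.12, 0.087, 0.073 and 0.084, as were 11.4% of all genes. Its mean of 0.090 (SE 0.043, adjusted p 0.329) became -0.020 on arrays with knockout RNA in channel 1 alone. Of the chaperones that build the base, Psmd10 was at -0.087 and Psmd5 at -0.073, the latter with mouse 1 above 0 at 0.11. The alpha-ring chaperones Psmg1 and Psmg2 were at -0.019 and -0.038. Psme4 (8 arrays, between -0.48 and 0.40) and Psmg4 (14 arrays, between -0.33 and 0.18) lacked a value in 1 or more orientations of a mouse and were not tested.

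A pair of E1 enzymes was measured. Uba6, which activates both ubiquitin and the ubiquitin-like FAT10, was at -0.053, -0.14, -0.36 and -0.15 in mice 1 to 4. It was below the pool in each animal and lowest in mouse 3, with a mean of -0.17 (SE 0.057, 1.13-fold lower, adjusted p 0.192), or -0.11 without mouse 3. Uba7, the E1 of the interferon-induced modifier ISG15, was at -0.0076 (SE 0.046), with its mice between -0.058 and 0.060.

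The E2 genes were a mixed group: 16 of 22 were below 0, with a median of -0.078 and mouse medians of 0.010, -0.037, -0.12 and -0.11. Ratios were below 0 in all 4 mice for 6 of the 22 and above 0 in all 4 for 2, against 14.3% and 11.4% of all genes. Ube2d3, an E2 that works with a wide range of ligases, was at -0.14, -0.048, -0.31 and -0.43 in mice 1 to 4. All animals lay below the pool, mouse 4 the most, at a mean of -0.23 (SE 0.067, 1.18-fold lower, adjusted p 0.174). Ube2a, a RAD6 homologue that acts on histones and in DNA damage tolerance, was at -0.17, -0.062, -0.16 and -0.17. Mouse 2 was the nearest to the pool, and the mean was -0.14 (SE 0.045, adjusted p 0.190), from probes at -0.17 and -0.10. Ube2w, which modifies the amino terminus of proteins, was at -0.078, -0.097, -0.50 and -0.13, so that mouse 3 alone carried much of its mean of -0.20 (SE 0.073, adjusted p 0.229), which was -0.10 without that animal.

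Ube2g2, an E2 of degradation at the endoplasmic reticulum, had the widest spread of all members (SD 0.31 over 4 mice). Its values were -0.010, -0.27, -0.59 and 0.13, from well below the pool in mouse 3 to above it in mouse 4. Single arrays of an animal were far apart, at -0.70, -0.24, 0.051 and -1.45 in mouse 3. In mouse 4 they were at 0.058, 0.55, 0.010 and -0.11. The F test between mice, described below, gave Ube2g2 an adjusted p of 0.326. Ube2n, which builds chains that signal without degradation, was at -0.16 with mouse 1 above 0, while its partner Ube2v1 had a mean of 0.085, with mice 3 and 4 above the pool (0.21 and 0.23) and mice 1 and 2 below. Ube2f, which conjugates NEDD8, was at -0.11. Ube2k and Ube2r2 were below 0 in all 4 mice with means of -0.10 and -0.090, and Ube2l3, with 4 probes that were all below 0, at -0.080. Ube2q1, Ube2s, Ube2o, Ube2d-ps (a pseudogene), Ube2z, Ube2b and Ube2j1 ran from -0.10 to -0.019. Probes of Ube2z (0.077 and -0.19) and Ube2b (0.028 and -0.14) differed in sign, so that the mean of each stands for neither.

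Above 0 in all 4 mice were Ube2ql1, with a mean of 0.10 (SE 0.045), and Ube2d1, close in sequence family to Ube2d3, with a mean of 0.045 (SE 0.044). Ube2h and Ube2j2 had means of 0.049 and 0.039. Ube2c (9 arrays), Ube2d2a (3 arrays) and Ube2u (8 arrays) were not tested. The ligases of the rule lay near the pool. Ube3b was above it in all 4 mice, at 0.079, 0.030, 0.076 and 0.097 with a mean of 0.070 (SE 0.043, adjusted p 0.419), from probes at 0.018 and 0.12. Ube3c, a ligase that associates with the proteasome, was at -0.011 (SE 0.062) and ran from -0.17 to 0.19, and the chain-extending Ube4b was at -0.022, from probes of opposite sign (-0.044 and 0.00063).

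The symbol rule also took Psmc3ip, a meiotic recombination factor that is no proteasome subunit, at -0.010. Psme3ip1, which binds the activator Psme3, had values on 11 arrays and was not tested.

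**Figure D4:**
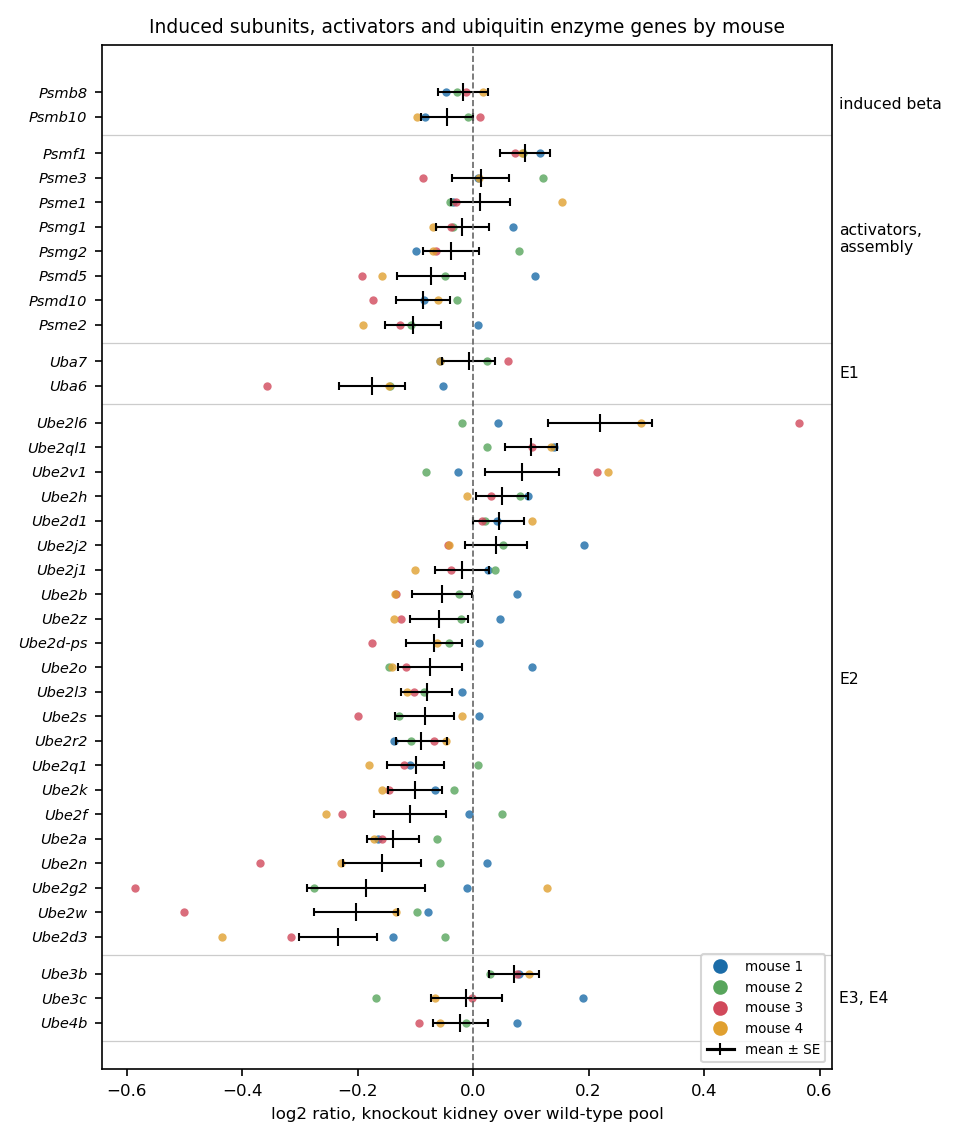
Log2 ratio of knockout kidney over wild-type pool (x axis) for the induced core subunits, the activators, inhibitor and assembly factors, and the E1, E2, E3 and E4 genes (y axis), with a coloured point for each of 4 mice and a black bar for their mean ± SE from limma. E2 means spread from -0.23 (Ube2d3) to 0.22 (Ube2l6), the latter with mouse 3 at 0.56.

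Differences between the 4 knockout animals, from which the shared pool cancels, were tested at array level with an F test that holds a dye term. Arrays measure technical spread, so the test compares these animals and not genotypes. It passed the adjusted threshold for 1 of 65 members, Ube2l6, and for 2.60% of all genes. Ube2l6 is an interferon-induced E2 that carries ISG15. Its values were 0.044, -0.019, 0.56 and 0.29 in mice 1 to 4. On the single arrays it was 0.52, 0.50, 0.71 and 0.53 in mouse 3 and 0.53, 0.40, 0.27 and -0.039 in mouse 4, against 0.11, 0.023, 0.064 and -0.020 in mouse 1 and -0.00047, -0.097, 0.069 and -0.048 in mouse 2. All 4 arrays of mouse 3 lay above those of mice 1 and 2, while array 4 of mouse 4 did not. The adjusted p was 0.00719, and 0.0256 without array 3 of mouse 3 and array 1 of mouse 4. It was 0.416 without mouse 3, 0.0555 without mouse 1, 0.0843 without mouse 2 and 0.00158 without mouse 4. Against the pool, the mean of 0.22 (SE 0.090, n = 4) had an adjusted p of 0.273 and was 0.11 without mouse 3, and Ube2l6 was the 1 member higher at an unadjusted p under 0.05.

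Psmc6 and Psmb1 came next, with adjusted p of 0.0901 and 0.0955 in the F test. On single arrays Psmc6 was -0.53, -0.29, -0.75 and -0.36 in mouse 3 and -0.41, -0.70, -0.39 and -0.19 in mouse 4, against -0.048, -0.28, 0.13 and -0.047 in mouse 1 and -0.0021, -0.15, 0.11 and -0.098 in mouse 2. All arrays of mouse 3 lay below those of mice 1 and 2, while mouse 4 overlapped mouse 1 but not mouse 2. When only probes with a value on all 16 arrays were tested, Psmc6 and Psmb1 passed the threshold beside Ube2l6, as 3 of 29 members and 170 of 2681 genes did.

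**Figure D5:**
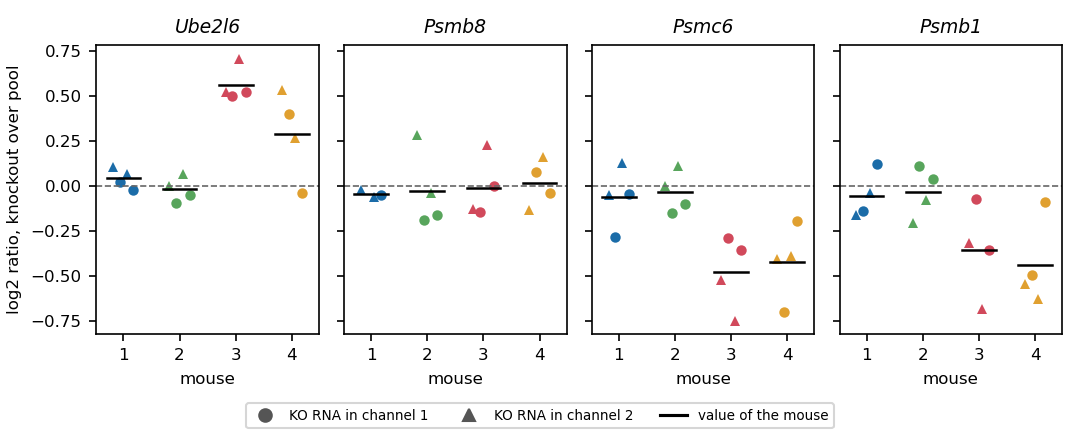
Log2 ratio of knockout over pool (y axis) on each array of each mouse (x axis) for Ube2l6, Psmb8, Psmc6 and Psmb1, with circles for knockout RNA in channel 1, triangles for channel 2 and a bar for the value of the mouse. Ube2l6 lies highest in mouse 3 (0.56), and Psmc6 and Psmb1 lie lowest in mice 3 and 4. The mouse values of Psmb8 stay near 0, while its single arrays run from -0.19 to 0.28.

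Other interferon-linked genes were set beside Ube2l6. Psmb8 and Psmb10 had adjusted p of 0.969 and 0.937 in the F test between mice. Irf1 and Irf8, transcription factors of the interferon-gamma response, were at 0.046, 0.18, 0.10 and 0.053 and at 0.013, 0.16, 0.13 and 0.17 in mice 1 to 4. Tap1, which carries proteasome peptides into the endoplasmic reticulum, was at -0.40, 0.27, 1.07 and 0.74 and differed between mice (adjusted p of the F test 7.40e-05), but a second probe that names Tap1 together with Psmb9 was at -0.15, -0.0029, 0.0011 and -0.16. B2m was at -0.13, 0.088, -0.12 and -0.34. Markers of leukocytes had a median of 0.0073 over 13 measured genes, with mouse medians of -0.12, 0.048, 0.098 and -0.018. The part of these genes in the spread of Ube2l6 was not tested.

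Partners of the proteasome outside the naming rule were read from lists. Sem1, the smallest subunit of the 19S lid, was at -0.33, -0.080, -0.24 and -0.34 in mice 1 to 4. Each animal lay below the pool, and its mean of -0.25 (SE 0.056, adjusted p 0.145) was next to that of Psmc6. Pomp, the chaperone that matures the core, was at -0.10 and Txnl1, a thioredoxin bound to the cap, at -0.10, both below 0 in all 4 mice. Nfe2l1, the factor that drives subunit genes, was at 0.031 (SE 0.049). Of 7 partners measured, 5 were below 0, with a median of -0.026, and none passed the adjusted threshold.

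No gene of the other pathway lists passed the adjusted threshold against the pool in limma. Of all genes, 3205 of 6191 were below 0, and 10.0% were lower and 6.80% higher at an unadjusted p under 0.05. Of 17 genes listed as deubiquitinases, 14 were below 0 (median -0.073), 3 lower and 1 higher at the same p. The lower ones were Usp8, Cops5 and Eif3h, the last at -0.10. Usp5, which recycles free chains, was the higher one, at 0.14 (SE 0.046, adjusted p 0.187), and Usp8, which acts at endosomes, was at -0.13 (SE 0.045). Of 20 cullin-RING and COP9 genes, 16 were below 0 (median -0.051) and 4 lower at that p, among them Cops5, the NEDD8-removing subunit also listed as a deubiquitinase, at -0.15, the ring subunit Rnf7 at -0.16 and Cops8 at -0.12. Cops5 was at -0.29 with knockout RNA in channel 1 only and -0.015 in channel 2 only, and Cops8 at -0.059 and -0.18. Ubiquitin genes and shuttle factors had a median of -0.0025 over 9 genes, 6 of them below 0, with Ubxn4 at -0.11, Faf2 at -0.056 and Ubqln1 at -0.053.

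The modifiers that resemble ubiquitin, listed together with their enzymes, had a median of -0.020 over 18 genes, 11 of them below 0. Nedd8 was at -0.13, -0.078, -0.11 and -0.12, evenly below the pool, with a mean of -0.11 (SE 0.043, adjusted p 0.261). Ufm1 had a mean of -0.15, with 0.0025, -0.029, -0.32 and -0.24 in mice 1 to 4. The fit without mouse 3 gave 0.0046, but it also took in probes that lacked values in mouse 3. That value therefore does not show the part of mouse 3 alone. Atg12, a conjugate of autophagy, differed between mice (adjusted p of the F test 0.00133), with -0.22, 0.27, 0.72 and 0.34 in mice 1 to 4, and its mean of 0.28 was 0.13 without mouse 3 and 0.44 without mouse 1. Among 22 other E3 ligases, 12 were below 0 (median -0.016). Ubr4, of the N-degron pathway, was at 0.17 (adjusted p 0.178), Rnf11 at -0.28 and Wwp1 at -0.28, the last with a difference between mice (F test, adjusted p 0.0454), mouse 3 lowest at -0.65 and a mean of -0.16 without mouse 3. Rnf11 was at -0.63, -0.15, -0.24 and -0.090 in mice 1 to 4, so that mouse 1 stood lowest, and its mean was -0.16 without mouse 1 and -0.047 on arrays 1 and 2 only. With knockout RNA in channel 1 only Rnf11 was at -0.43, and in channel 2 only at -0.13.

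Markers of kidney cell types gave these values beside the subunits. The 12 proximal tubule markers had a median of 0.00064, 6 on each side of 0. At an unadjusted p under 0.05, 3 of the 12 were higher and none was lower, against 6.80% and 10.0% of all genes. Above 0 in all 4 mice were 4 of the 12, and 11.4% of all genes. A difference between orientations at an unadjusted p under 0.05 was found for 7 of the 12, and for 19.5% of all genes. Slc22a8, an organic anion transporter, passed the adjusted threshold at 0.48 (SE 0.054, adjusted p 0.0149), with 0.43, 0.34, 0.57 and 0.59 in mice 1 to 4, and Slc13a3 and Miox were at 0.21 and 0.16. All 6 collecting duct markers were above 0, with a median of 0.12 and mouse medians of 0.14, 0.00069, 0.20 and 0.21. Of 6 endothelial markers, 5 were below 0, with a median of -0.065, where 3205 of all 6191 genes were below 0. The seminal vesicle transcript Svs5 was at 0.21, -0.092, 4.94 and 1.09 in mice 1 to 4, higher in mice 3 and 4, whose subunit medians were the lower ones. Umod, of the loop of Henle, was at -0.14, -0.33, 0.19 and 0.27, also higher in mice 3 and 4 (adjusted p of the F test 0.0122). Ppp1r1a, the other measured marker of the loop and distal tubule, was at -0.13, -0.094, -0.39 and -0.17. The part of cell composition or of tissue carried along in the ratios of the subunits was not tested.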

How the data were processed

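Per the labels, kidney RNA was reverse transcribed, labelled indirectly with Cy3 or Cy5, hybridised to spotted cDNA arrays and scanned. The authors subtracted background and scaled the mean intensities to a median ratio of 1 per array, per the labels. The deposited values are log2 ratios of 2 channels. The base was read from the values, since 46.5% of spacings between their most repeated values matched log2 of fractions of whole numbers up to 20 within 2e-06, and 0% the other bases. The sources used here do not give the numerator.

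Values were centred on each array's median, signed to knockout over pool and averaged by orientation, mouse and gene. Of 20205 probes, 11723 named 1 gene, 806 several and 7676 none. Ratios were tested two-sided against 0 with limma 3.58.1 in R 4.3.3, and differences between mice by an F test moderated with limma, with Benjamini-Hochberg adjustment over 6191 genes. The scripts were tested on simulated data. Members and lists were chosen with earlier results of these data known. Genes named in detail were Slc15a2, members past a threshold, up to 4 per group of smallest p and 2 of largest spread, and 3 per pathway list. The other members are accounted for with their group. Irf1, Irf8, Tap1, B2m, Svs5, Umod, Ppp1r1a, Slc22a8, Slc13a3, Miox, Nfe2l1 and Eif3h were added after their values were seen.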

Additional observations from a re-analysis of the deposited data

Results flagged for a closer look

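In 6 of 65 members 1 mouse lay far from the other 3 by Dixon's criterion, which chance alone meets in about 1 of 20 groups. Psma6 was at 0.032 in mouse 2, with the others between -0.15 and -0.12. Psmd11 was at -0.15 in mouse 4 and otherwise between -0.015 and 0.010. For Psme1, mouse 4 was at 0.15 and the rest between -0.040 and -0.030. Ube2a stood at -0.062 in mouse 2 against -0.17 to -0.16 elsewhere. Ube2o was above the pool in mouse 1 alone, at 0.10, with -0.15 to -0.12 in the other animals. Ube2w was at -0.50 in mouse 3, where the other mice had -0.13 to -0.078. None of the 9 group medians met the criterion.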

How the results depend on the processing

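No member passed the adjusted threshold against the pool under any setting other than the fit of 16 arrays with the mouse as a random block, which called 10. The number of subunits below 0 stayed within 1.5 times its share in all settings. The number lower at an unadjusted p under 0.05 was 14 and ranged from 5 to 15 with 1 mouse left out, and it was 9 with knockout RNA in channel 1 only, where 8.67% of all genes were lower at that p. On arrays 3 and 4 only it was 3 of 21, near the 9.82% of all genes there. The number of members that differed between mice was 1, ranged from 0 to 1 with a mouse left out and was 3 with probes measured on all 16 arrays. Medians of groups with 1 to 3 genes moved: with channel 1 only, the induced core subunits were at -0.13, E1 at -0.021, E3 and E4 at 0.048 and Psmc3ip with Psme3ip1 at 0.059; with channel 2 only, the induced subunits were at 0.073 and E1 at -0.16; on arrays 1 and 2, E1 was at -0.15, E3 and E4 at 0.053 and Psmc3ip at -0.098; on arrays 3 and 4, the induced subunits were at 0.0050 and E3 and E4 at 0.12. Another 122 group medians under alternatives moved by less than the spread between mice.

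Over all alternatives, 681 ratios of named genes kept their sign and 24 turned it. With 1 mouse left out, Psmd8 ranged from -0.065 to 0.061, Uba7 from -0.030 to 0.0092, Ube3c from -0.079 to 0.041 and Ube4b from -0.056 to 0.0020. Psmc3ip ranged from -0.035 to 0.0068, Ufm1 from -0.19 to 0.0046 and Psme1 from -0.035 to 0.030. These fits filter probes on the remaining mice only, and the upper value of Ufm1 comes from a changed set of probes. With channel 1 only, Psmf1 was at -0.020, Psme1 at -0.0080, Uba7 at 0.014 and Ube4b at 0.048. With channel 2 only, Psmb10 was at 0.11, Psmb8 at 0.035, Psmd8 at 0.079 and Psmc3ip at 0.028. Arrays 1 and 2 gave -0.015 for Psme1 and 0.053 for Ube4b, arrays 3 and 4 gave 0.0050 for Psmb8, values without centring 0.0039 for Uba7, and 1 probe per gene 0.00063 for Ube4b. Leaving out array 3 of mouse 3 and array 1 of mouse 4, a choice made after the data were seen like the averaging of genes before the filter, gave 0.014 for Ube3c. The cause was not tested. Without intensities, signal over background could not be used, and ratios of small size are limited by 4 mice and 1 pool.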

Other observations

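Probes that name a member together with other genes were left out of the comparisons. The probe of Tap1 and Psmb9, the remaining induced core subunit, was at -0.15, -0.0029, 0.0011 and -0.16 in mice 1 to 4. A probe of Ube3a, a ligase best known from brain, and the transcript C230091D08Rik was at -0.022, 0.23, -0.41 and -0.25. A second Psmd2 sequence, shared with Gm5422, was at -0.024, -0.012, 0.046 and -0.035, against 0.076, -0.067, -0.14 and -0.16 for the probe that names Psmd2 alone.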
